A study of Saccharomyces cerevisiae with 44 samples.

Results

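Yeast cultures in SC, a synthetic medium, that received 0.1 N NaOH as the vehicle of an inhibitor (group CM, the control for MTX) were compared with cultures in SC that received water (group CD, the control for DOX). Both groups were wild-type Saccharomyces cerevisiae of the W303 laboratory background, held neither inhibitor nor acetone, and grew at 30 °C to an optical density of about 0.3 before the vehicle was added. All cultures that carried these 2 labels were taken, and all genes were included. That made 8 libraries of 44 and 4 cultures of 22 in the series, with 2 cultures a group and 2 technical replicates a culture. The 6344 genes with enough counts to test, of 6692 annotated features, are described below.

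The other groups named here were CA (2% acetone in SC), C0 (water in YEPD, a rich medium) and CC (1 N NaOH in YEPD), each with 2 cultures of the same strain, temperature and density. The NaOH concentrations are those of the labels. The volume added, the pH of the medium after it and the length of growth after it were not stated in the labels. The protocol states that cells grew on to a time set by the IC50 of the inhibitor, and it does not say whether the NaOH cultures and the water cultures were harvested after the same time. A difference in vehicle, in harvest time or in day of growth cannot be told apart in these groups. The labels call the cultures biological replicates, and whether each came from a separate starter culture is not stated, so that p-values measure the spread between these cultures.

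Budding yeast keeps its medium acid by pumping protons out through the plasma membrane ATPase Pma1, and much of its nutrient uptake is driven by that proton gradient. When the outside turns alkaline, cells are known to switch on the sodium pump gene ENA1, the phosphate starvation (PHO) genes, and genes for iron and copper uptake, through the transcription factor Rim101, the calcium-dependent phosphatase calcineurin with its factor Crz1, and the glucose-sensing kinase Snf1. None of the labels gives a pH. The PHO genes are the classical targets of the factor Pho4, which binds the core CACGTG or CACGTT. Trehalose and glycogen genes are classical targets of the stress factors Msn2 and Msn4, which bind the stress element CCCCT.

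The windows from 400 to 101 bases before the start codon are shown for 3 PHO genes and 2 storage carbohydrate genes, since results below turn on these gene groups. They come from the RefSeq R64 assembly, read 5′ to 3′ on the strand of the gene. Capitals mark CACGTG or CACGTT on either strand in the first 3 and CCCCT on either strand in the last 2. PHO89 encodes a sodium and phosphate cotransporter (chrII:798623-798922, minus strand), PHO84 the high-affinity phosphate transporter (chrXIII:25901-26200, minus strand), SPL2 a small protein that acts on low-affinity phosphate uptake (chrVIII:375201-375500, minus strand), TSL1 a subunit of the trehalose synthase complex (chrXIII:70224-70523, plus strand) and GSY2 a glycogen synthase (chrXII:660316-660615, plus strand).
PHO89: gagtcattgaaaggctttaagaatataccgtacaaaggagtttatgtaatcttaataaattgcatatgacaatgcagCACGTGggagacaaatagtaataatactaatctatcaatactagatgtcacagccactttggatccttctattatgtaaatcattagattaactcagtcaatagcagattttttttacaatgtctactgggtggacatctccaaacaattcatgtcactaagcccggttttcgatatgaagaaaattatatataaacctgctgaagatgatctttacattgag
PHO84: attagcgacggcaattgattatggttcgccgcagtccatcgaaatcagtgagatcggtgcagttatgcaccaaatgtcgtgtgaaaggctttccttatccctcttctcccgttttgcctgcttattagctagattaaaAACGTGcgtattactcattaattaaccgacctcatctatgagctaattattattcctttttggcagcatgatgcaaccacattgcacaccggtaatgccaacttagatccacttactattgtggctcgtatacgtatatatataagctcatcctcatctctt
SPL2: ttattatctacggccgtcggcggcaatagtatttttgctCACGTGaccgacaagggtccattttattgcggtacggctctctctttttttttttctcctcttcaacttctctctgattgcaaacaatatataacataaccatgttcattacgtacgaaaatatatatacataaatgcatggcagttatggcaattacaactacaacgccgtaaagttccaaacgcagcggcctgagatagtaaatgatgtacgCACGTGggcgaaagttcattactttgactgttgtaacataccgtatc
TSL1: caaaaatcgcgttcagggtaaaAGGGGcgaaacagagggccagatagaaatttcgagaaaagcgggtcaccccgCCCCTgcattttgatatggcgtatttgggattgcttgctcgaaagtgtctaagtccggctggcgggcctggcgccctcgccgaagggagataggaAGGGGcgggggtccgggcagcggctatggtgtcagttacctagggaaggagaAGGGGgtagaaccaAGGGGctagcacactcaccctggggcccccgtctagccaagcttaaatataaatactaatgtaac
GSY2: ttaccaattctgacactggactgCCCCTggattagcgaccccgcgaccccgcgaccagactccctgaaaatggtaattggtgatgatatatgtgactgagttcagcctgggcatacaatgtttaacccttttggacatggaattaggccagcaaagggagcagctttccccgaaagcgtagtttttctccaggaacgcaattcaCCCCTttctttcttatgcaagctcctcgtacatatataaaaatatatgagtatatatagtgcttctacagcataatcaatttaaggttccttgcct
CACGTG or CACGTT occurred in 15 of the 17 windows of the PHO list (88.2%) and in 829 of 5982 windows of all genes (13.9%). CCCCT occurred in 15 of the 18 windows of the trehalose and glycogen list (83.3%) and in 1411 of 5982 (23.6%), with 5 matches in the window of TSL1. A match describes the letters only, and nothing was measured about binding.

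Library totals were 10.79 to 12.9 M counts in the water group and 11.21 to 14.13 M in the NaOH group. CPM values, counts scaled to a common library total, are shares of a library, so that less RNA of a gene per cell and fewer cells that express it cannot be told apart. Markers of a MATa strain were present in all 4 cultures, at unequal levels. The 7 a-specific genes summed to between 1251 and 1335 CPM, and the 4 alpha-specific genes to between 26.2 and 28.6 CPM. The a-specific sum rests mostly on other members than AGA2, MFA1 and ASG7. By library these had 2.86 to 4.39 CPM, 9.3 to 15.6 CPM and 12.9 to 17.7 CPM. Technical replicates of a culture differed by more than counting noise, with a chi-square per degree of freedom from 6.39 in NaOH culture 1 to 64.8 in NaOH culture 2.

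The second library of NaOH culture 2 stood apart from the other 7. The standard deviation over genes of its log2 difference from each of them was 0.294 to 0.478, while it was 0.138 to 0.288 among the 6 libraries left when the second library of water culture 1 was also set aside. The latter differed from those 6 by 0.266 to 0.327. The title and characteristics of the NaOH library give it as technical replicate 2 and its description as technical replicate 1, and the title was followed. Among genes with a standard name and a mean of at least 10 CPM that were higher in its partner library, the gap was largest for RTC3, at 46 CPM in the first library and 14.9 CPM in the second. HSP42, a small heat shock protein gene, had 81.1 CPM and 28.4 CPM in the same pair. Values without it are given beside list medians and genes where they differ most.

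No gene passed the test for NaOH against water when all 22 cultures of the series set the culture-to-culture spread. These included the cultures that received inhibitors, in the groups HU, MMS, CPT, AD, DOX and MTX. Of 6344 genes, 0 (0%) passed an adjusted p of 0.05 in edgeR's quasi-likelihood test, with a smallest adjusted p of 0.193. DESeq2 on the same cultures also called 0. At an unadjusted p under 0.05 edgeR had 156 genes higher (2.46%) and 45 genes lower (0.709%). The median size of the log2 fold change was 0.12, and 70.2% of genes lay within 0.2 of zero. The count stayed at 0 without the second library of NaOH culture 2, and without that library and the second library of water culture 1.

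The precision of the comparison sets how far this goes. The median standard error of a log2 fold change was 0.19. For 5578 genes (87.9%) the 95% interval lay within 2-fold in both directions, and for 3637 genes (57.3%) it lay within 1.5-fold. For the other genes a 2-fold difference was not excluded by the interval. Of the 30 genes with a fitted difference of 2-fold or more, 2 had a mean of at least 10 CPM in either group, PHO89 and RGI2, a gene of respiratory growth.

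**Figure D1:**
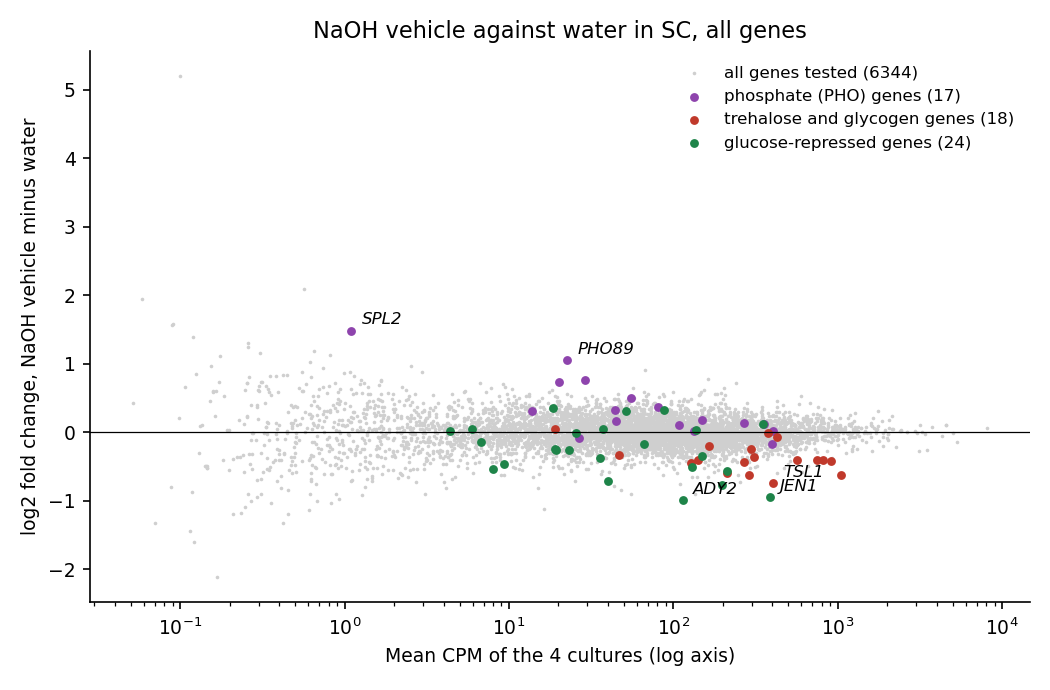
Each point is a gene, with its mean CPM over the 4 cultures on a log axis and its log2 fold change of NaOH vehicle minus water on the vertical axis. Colours mark the 17 phosphate genes, 18 trehalose and glycogen genes and 24 glucose-repressed genes. Most genes lie close to zero, phosphate genes lie mostly above it, and trehalose and glycogen genes mostly below it, while 0 of 6344 passed the test.

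The genes most directly tied to alkaline stress did not pass the test, and the 95% intervals of PMA1, ENA1 and RIM101 lay within 2-fold. PMA1, the proton pump, had 4887 and 5144 CPM in the water cultures and 4895 and 5084 CPM in the NaOH cultures. The groups overlapped, and the log2 fold change was -0.01 ± 0.14 (SE, n = 2 cultures a group). ENA1, the sodium pump, had 812 and 699 CPM in water and 680 and 732 CPM in NaOH. The groups overlapped again, with a log2 fold change of -0.10 and a 95% interval from -0.46 to 0.26. ENA1 has near-identical copies in ENA2 and ENA5, so that its reads may be split among them. RIM101, the alkaline pH factor, had 362 and 354 CPM in water and 347 and 368 CPM in NaOH, with an interval from -0.24 to 0.23.

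Metal uptake genes gave a like picture. FET3, the multicopper oxidase of high-affinity iron uptake, had 962 and 1196 CPM in water and 1090 and 1388 CPM in NaOH, with a log2 fold change of 0.20 and an interval from -0.29 to 0.69. CTR1, the copper transporter gene, lay at 0.01 with an interval from -0.49 to 0.52, and it overlaps another feature, which makes its count uncertain. ZRT1, the zinc transporter gene, had 706 and 273 CPM in water and 761 and 639 CPM in NaOH. The water cultures differed more from each other than the group means did, and the interval ran from -0.35 to 1.38. The log2 fold change was 1.36 without water culture 1 and 0 without water culture 2. INO1, an inositol synthesis gene, had 203 and 135 CPM in water and 183 and 236 CPM in NaOH, with overlapping groups.

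The glucose transporter genes of the panel did not pass either. HXT2, a high-affinity transporter gene, had 1304 and 1385 CPM in water and 1437 and 1371 CPM in NaOH, and its interval ran from -0.34 to 0.46. HXT4 had 1314 and 1594 CPM in water and 1210 and 1480 CPM in NaOH. HXT1, the low-affinity transporter gene that high glucose induces, had 23.8 and 43.8 CPM in water and 29.9 and 23.4 CPM in NaOH. Its interval ran from -2.81 to 2.13, so that for HXT1 a change of several fold was not detectable in this design.

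**Figure D2:**
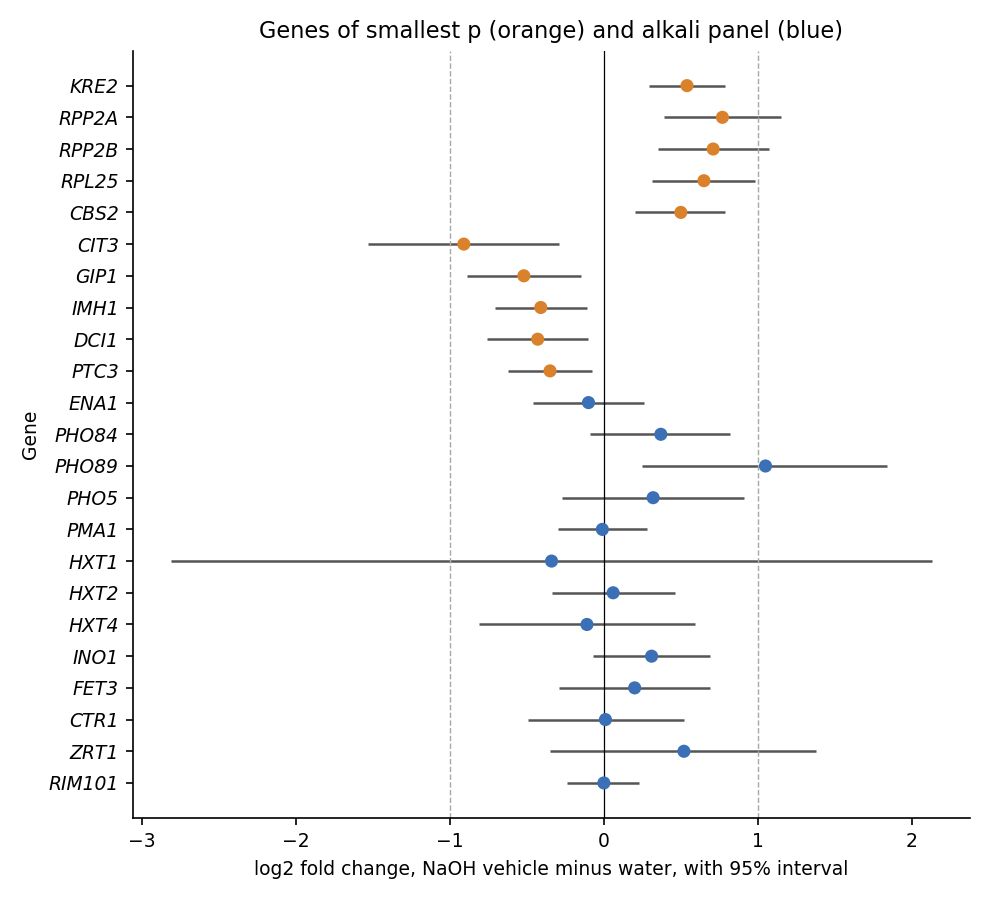
Log2 fold changes of NaOH vehicle minus water (points) with 95% intervals (lines) from the fit of 22 cultures, for the 10 genes of smallest p in orange and the 13 genes of the alkali panel in blue. Dashed lines mark 2-fold; the interval of PMA1 runs from -0.30 to 0.28, that of PHO89 from 0.25 to 1.84 and that of HXT1 from -2.81 to 2.13.

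Phosphate genes lay higher in NaOH than in water in most cases, by small amounts, and none passed the adjusted test. Of the 17 PHO genes, 12 (70.6%) had both NaOH cultures above both water cultures, and 1 had both below. Over all genes those shares were 22.8% above and 22.2% below. The median log2 fold change of the list was 0.17, against -0.01 over all genes. The median of culture 1 minus culture 2 in this list was 0.15 in water and -0.13 in NaOH, nearly as much as between the groups. At an unadjusted p under 0.05 in edgeR's test, 5 of the 17 were higher and 0 lower, against 2.46% and 0.709% of all genes.

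Among the transporters, PHO89 had 19.9 and 9.29 CPM in the water cultures and 33.5 and 27 CPM in the NaOH cultures. All 4 NaOH libraries lay above all 4 water libraries, with 21.9 CPM the lowest of the former and 20.4 CPM the highest of the latter. The log2 fold change was 1.05 ± 0.37 (SE), with an adjusted p of 0.999 in edgeR's test. It was 1.71 without water culture 1 and 0.62 without water culture 2. PHO84 had 76.2 and 63.8 CPM in water and 94.1 and 86.5 CPM in NaOH, a log2 fold change of 0.37 ± 0.21. Its 4 NaOH libraries, from 84.2 to 94.2 CPM, also lay above its 4 water libraries, from 62.8 to 78.3 CPM.

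Among the phosphatases, PHO5, the main repressible acid phosphatase gene, had 46.2 and 32.5 CPM in water and 46.8 and 51.6 CPM in NaOH, and the log2 fold change was 0.32 ± 0.28. It was 0.60 without water culture 1, 0.10 without water culture 2 and 0.10 with the first technical replicates alone. PHO11 and PHO12, a pair of near-identical acid phosphatase genes whose reads may be split, had log2 fold changes of 0.73 ± 0.28 and 0.76 ± 0.29. That of PHO12 was 1.2 without water culture 1 and 0.44 without water culture 2. PHO8, the vacuolar alkaline phosphatase gene, was the member with both NaOH cultures below, at 424 and 425 CPM in water and 352 and 400 CPM in NaOH. Of the polyphosphate synthesis genes, VTC1 had a log2 fold change of 0.50 ± 0.18, which was 0.30 without the second library of NaOH culture 2, and VTC2, VTC3 and VTC4 had values of 0.02, 0.14 and 0.12. PHO81, which encodes the inhibitor that frees Pho4, lay at 0.10 ± 0.10.

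SPL2 had the smallest p of all 6344 genes. It lies outside the naming rule for its low level and was chosen after its values were seen. It had 12 and 15 counts in the water cultures and 43 and 39 counts in the NaOH cultures, or 0.482, 0.677, 1.56 and 1.66 CPM. The groups did not overlap, and the log2 fold change was 1.48 ± 0.26 with an adjusted p of 0.193 in edgeR's test. In the acetone cultures SPL2 had 0.991 and 0.934 CPM, and in the rich medium with water 50.1 and 49.3 CPM. The PHO genes together summed to 2172 and 1999 CPM in the water cultures in SC and to 2165 and 2278 CPM in the NaOH cultures. These sums overlapped between the groups. The 4 YEPD vehicle cultures had sums of 10670 to 11634 CPM, above those of the water and NaOH cultures in SC.

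Zinc genes lay at a median log2 fold change of 0.25, with 3 of 9 genes (33.3%) above in both cultures and 1 (11.1%) below, near the 22.8% and 22.2% of all genes. ZRT3, which releases zinc from the vacuole, had 102 and 93 CPM in water and 126 and 129 CPM in NaOH, at 0.39 ± 0.14. The water cultures differed from each other by a median of 0.24 in this list, about as much as the groups did. The median was 0.40 without water culture 1 and 0.05 without water culture 2.

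Storage carbohydrate genes lay lower in NaOH than in water, and none passed the adjusted test. Of 18 trehalose and glycogen genes, 15 (83.3%) had both NaOH cultures below both water cultures and 1 had both above, against 22.2% and 22.8% of all genes. The median log2 fold change was -0.40, and it was -0.28 without the second library of NaOH culture 2. Summed over the list, the water cultures had 8011 and 8371 CPM and the NaOH cultures 5464 and 6794 CPM. By library the NaOH sums were 5595, 5263, 7662 and 5989 CPM and the water sums 7509 to 8507 CPM, so that the first library of NaOH culture 2 reached the water range.

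TSL1 had 519 and 491 CPM in the water cultures and 242 and 360 CPM in the NaOH cultures, with a log2 fold change of -0.75 ± 0.77. It was -0.49 without NaOH culture 1, -1.06 without NaOH culture 2 and -0.58 without the second library of that culture. GSY2 had 338 and 364 CPM in water and 209 and 248 CPM in NaOH, with -0.62 ± 0.60. GPH1, the glycogen phosphorylase gene, had 1224 and 1305 CPM in water and 635 and 995 CPM in NaOH, with -0.63 ± 0.80. That value was -0.35 without NaOH culture 1, -0.99 without NaOH culture 2 and -0.43 without the second library of that culture. In each of these 3 genes the groups did not overlap, and the standard error from the shared spread was about as large as the difference. GLG2, a glycogenin gene, was the only member of the list with both NaOH cultures above, at 18.8 and 18.9 CPM in water and 19.6 and 19.2 CPM in NaOH.

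Genes that glucose represses also lay more often below than above, and none passed the adjusted test. Of 24, 13 had both NaOH cultures below and 3 above. The shares were 54.2% below and 12.5% above, against 22.2% and 22.8% of all genes. The median was -0.26, and it was -0.27 without the second library of NaOH culture 2. At an unadjusted p under 0.05 in edgeR's test 1 of the 24 was lower, against 0.709% of all genes. JEN1, the lactate and pyruvate transporter gene, had 453 and 563 CPM in water and 255 and 271 CPM in NaOH. All 4 NaOH libraries, from 242 to 285 CPM, lay below all 4 water libraries, from 449 to 601 CPM. The log2 fold change was -0.95 ± 0.86. ADH2, the alcohol dehydrogenase gene of ethanol use, had 261 and 238 CPM in water and 152 and 141 CPM in NaOH, with -0.77 ± 0.35. SUC2, the invertase gene, had 313 and 358 CPM in water and 343 and 386 CPM in NaOH, and its groups overlapped. Of 20 stress genes of Msn2 and Msn4, 9 (45%) lay below in both cultures and 1 (5%) above, against the same 22.2% and 22.8%. The median was -0.13, and it was -0.11 without the second library of NaOH culture 2 and -0.30 without NaOH culture 2.

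**Figure D3:**
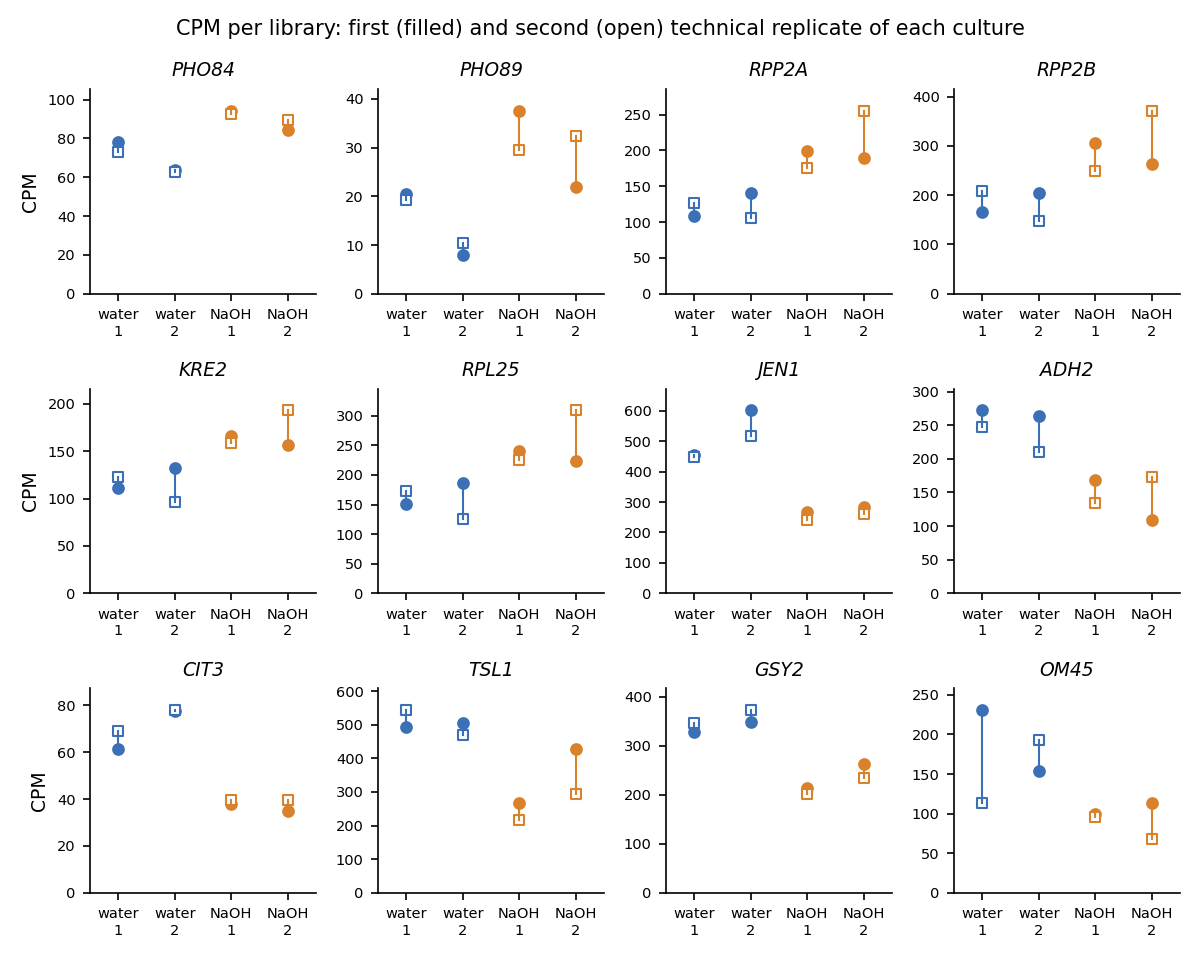
CPM of 12 genes in each of the 8 libraries. Blue is water and orange is NaOH, circles are the first and squares the second technical replicate, and a line joins the libraries of 1 culture. PHO89, RPP2A, JEN1 and TSL1 separate the groups in all 8 libraries, and OM45 does not. TSL1 and OM45 differ strongly between libraries of 1 culture.

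The 10 genes that the rule named for the smallest p were not called either. RPP2A and RPP2B encode the acidic P2 proteins of the ribosomal stalk. RPP2A had 117 and 123 CPM in water and 188 and 221 CPM in NaOH, a log2 fold change of 0.77 ± 0.18 with an interval from 0.39 to 1.15. RPP2B had 187 and 177 CPM in water and 278 and 316 CPM in NaOH, at 0.71 ± 0.17. RPL25, a protein gene of the large ribosomal subunit, had 162 and 157 CPM in water and 234 and 265 CPM in NaOH, at 0.65 ± 0.16. All 4 NaOH libraries lay above all 4 water libraries in these 3 genes.

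KRE2, a mannosyltransferase gene of the Golgi, had 117 and 115 CPM in water and 164 and 174 CPM in NaOH, at 0.54 ± 0.12. CBS2, a translational activator gene of mitochondria, had 24.2 and 23.8 CPM in water and 31.2 and 36.5 CPM in NaOH, at 0.50 ± 0.14. The adjusted p of these 5 genes lay between 0.839 and 0.999 in edgeR's test. Of 19 ribosomal protein genes in a list that does not hold the P2 genes, 10 (52.6%) lay above in both cultures and 0 below, against 22.8% and 22.2% of all genes. The median of that list was 0.13, and it was 0.01 without the second library of NaOH culture 2.

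On the lower side, CIT3, a citrate and methylcitrate synthase gene of mitochondria, had 65.4 and 78.7 CPM in water and 39.2 and 37.3 CPM in NaOH. Its log2 fold change was -0.91 ± 0.29, and all 4 NaOH libraries, from 35.1 to 39.8 CPM, lay below all 4 water libraries, from 61.6 to 78.1 CPM. GIP1, a phosphatase regulator of sporulation, lay at -0.52 ± 0.17, IMH1, a Golgi transport gene, at -0.41 ± 0.14, DCI1, a peroxisomal protein gene, at -0.43 ± 0.16, and PTC3, a protein phosphatase gene, at -0.35 ± 0.13. Separation in all 8 libraries held for 289 genes above (4.56%) and 237 genes below (3.74%) of all 6344, and libraries of 1 culture are not independent.

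The medians of most other gene lists lay near zero, and 0 of the 39 gene lists held a called gene. List medians ran from -0.40 to 0.34, and 29 of 39 lay within 0.1 of zero. The counts of genes above and below that follow are to be set against 22.8% and 22.2% of all genes. The highest, 0.34, was that of the 4 alpha-specific mating genes, which had at most 23.7 CPM each. Of 14 calcineurin and Crz1 genes, 1 lay above in both NaOH cultures and 5 below, with a median of -0.08. Of 11 genes of the Rim101 pathway 3 lay above and 4 below, with a median of 0.00. Of 12 cation transport genes 1 lay above and 2 below, with a median of -0.07. Further lists leaned to 1 side in these counts though their medians were small. Of 40 amino acid genes of Gcn4, 20 (50%) lay above and 1 (2.5%) below, with a median of 0.08. The shares above and below were 60% and 10% for histones, 56.2% and 12.5% for M/G1 genes and 50% and 18.8% for TCA cycle genes. They were 5.26% and 42.1% for amino acid permeases, and 15% and 40% for hexose transport genes.

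Of 15 genes of the vacuolar proton ATPase 5 lay above and 1 below, with a median of 0.06. VMA11, which encodes a membrane subunit of it, had 33 and 29.9 CPM in water and 43.9 and 45.3 CPM in NaOH, at 0.50 ± 0.15. Of 24 iron genes of Aft1 4 lay above and 2 below, with a median of 0.06. Of 20 cell wall genes 4 lay above and 6 below, with a median of -0.01. Of 20 DNA damage genes 3 lay above and 6 below, with a median of -0.06, and of 20 chaperone genes of Hsf1 4 lay above and 5 below, with a median of -0.04.

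**Figure D4:**
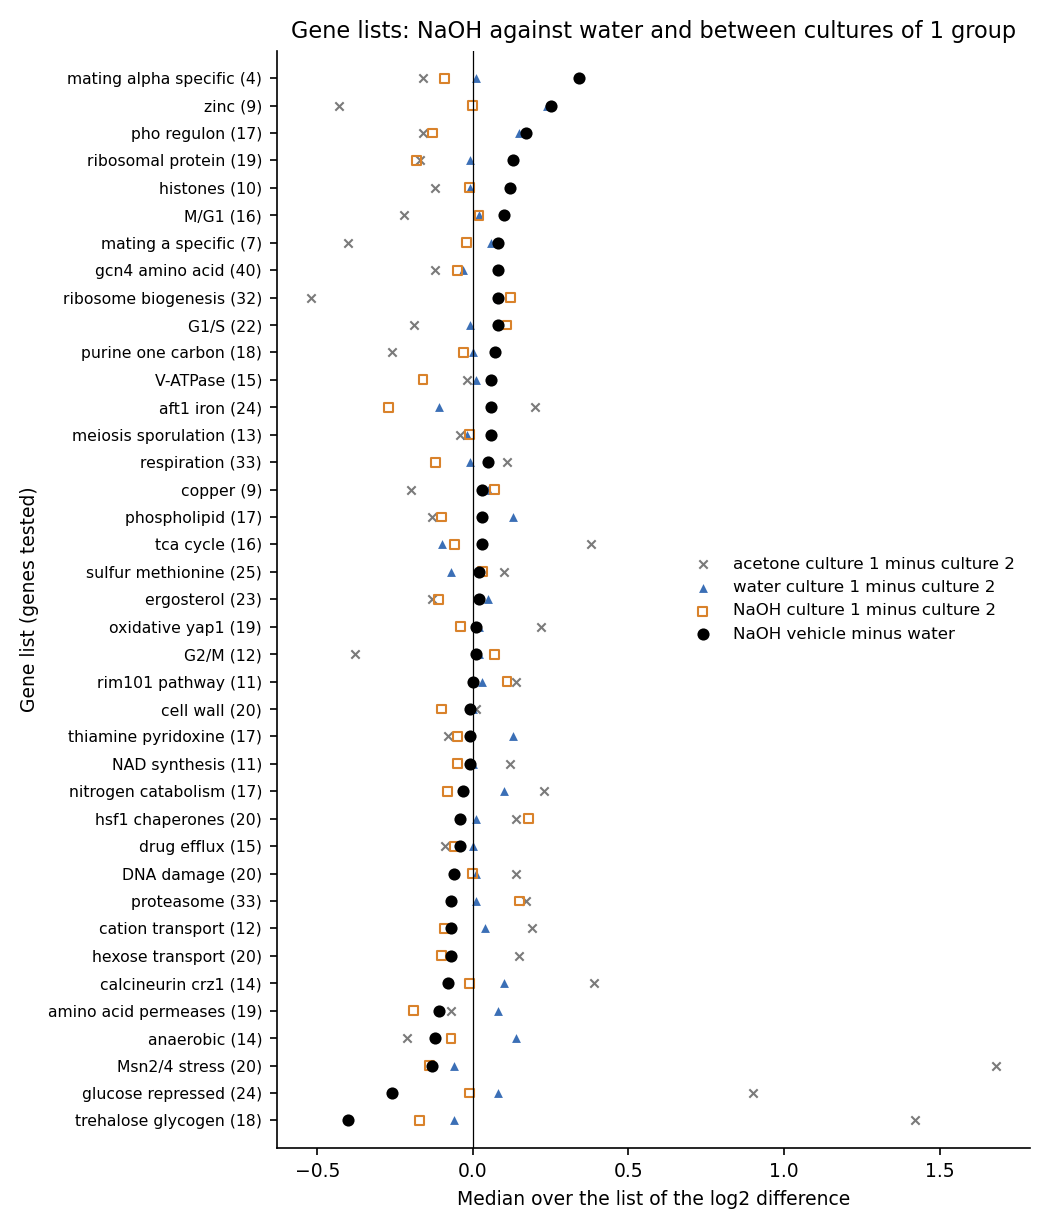
Median log2 difference of each of 39 gene lists, for NaOH vehicle minus water (black) and for culture 1 minus culture 2 within water (blue triangles), NaOH (orange squares) and acetone (grey crosses); the number of genes is in brackets. The trehalose and glycogen list at -0.40 is the lowest between groups, while the acetone cultures differ from each other by 1.42 in that list and by 1.68 in the Msn2 and Msn4 list.

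The number of called genes depended on which cultures set the spread. When the model was fitted to the 4 cultures of water and NaOH alone, edgeR called 38 genes of 6242, 15 higher (0.24%) and 23 lower (0.368%). The common coefficient of variation between cultures was 0.0864 in that fit and 0.156 in the fit of all 22. The fit of 4 has 2 residual degrees of freedom and that of 22 has 11. The log2 fold changes of the 38 genes lay between 0.54 and 0.91 for the higher genes and between -1.12 and -0.49 for the lower ones in the fit of 22. In the fit of 4 cultures, 0 genes passed when either the first or the second technical replicates were used alone, and 38 passed without the second library of NaOH culture 2, of which 22 were among the first 38.

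The 15 higher genes held 4 ribosomal protein genes, RPP2A, RPP2B, RPL25 and RPL20A, and the tRNA export and modification genes UTP8, TRM2 and TRM82. SAM2, an S-adenosylmethionine synthetase gene, had 164 and 150 CPM in water and 240 and 227 CPM in NaOH. ERG13 and ERG5, sterol synthesis genes, IMD3, a gene of GTP synthesis, KRE2, the peroxisome gene PEX25, YGR079W and LYS21, a lysine synthesis gene with a near-identical copy, made up the rest.

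Of the 23 lower genes, JEN1 and ADH2 were the 2 in the list of 24 glucose-repressed genes, and TSL1 and GSY2 the 2 in the list of 18 trehalose and glycogen genes. The list of 33 respiration genes held 0 of them, and 13 of its genes (39.4%) had both NaOH cultures above and 3 (9.09%) both below, with a median of 0.05. CIT3, CYC7, a cytochrome c isoform gene, RGI2, OM45 and CYB2 lie outside that list. OM45, an outer membrane protein gene of mitochondria, had 176 and 176 CPM in water and 98.2 and 90.9 CPM in NaOH. CYB2, the lactate dehydrogenase gene, had 124 and 152 CPM in water and 85.4 and 77.6 CPM in NaOH. SSA4, a stress-induced Hsp70 gene, had 157 and 184 CPM in water and 111 and 105 CPM in NaOH, and its log2 fold change of -0.66 was -0.38 without the second library of NaOH culture 2. GIP2 (a phosphatase regulator), HMX1 (heme oxygenase), GDH2 (glutamate dehydrogenase), PUT4 (proline permease), AQY3, MSB3, MSC1, SKM1, TMA10, TMA17, YPK2, YMR103C and YMR196W made up the rest.

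The acetone cultures differed widely from each other in these 23 genes. In 21 of the 23 genes, 1 acetone culture lay above all 4 water and NaOH cultures and the other lay below all 4. The share over all genes is not given here, and the 23 were chosen by a fit in which those 4 cultures alone set the spread. JEN1 had 1000 CPM in acetone culture 1 and 153 CPM in acetone culture 2. TSL1 had 736 and 135 CPM there, and OM45 had 250 and 60.1 CPM. CIT3 and ADH2 were the 2 exceptions. CIT3 had 82.3 CPM in acetone culture 1, above both water cultures, and 43.5 CPM in acetone culture 2, above both NaOH cultures. For ADH2 the acetone cultures had 255 and 111 CPM. The YEPD cultures also differed widely from each other in some of the 23 genes. With NaOH in YEPD JEN1 had 41.2 and 340 CPM, and with water in YEPD TSL1 had 333 and 137 CPM. In others they were close, as in SSA4, with 123 and 116 CPM with water and 76.3 and 71.5 CPM with NaOH.

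The standard errors of these 23 genes had a median of 0.52 in the fit of 22 cultures and lay between 0.09 and 0.20 in the fit of 4. Among the 15 higher genes 3 had the acetone cultures beyond both ends, and the median standard error was 0.17 in the fit of 22. At an unadjusted p under 0.05 in that fit were 14 of the 15 higher genes and 4 of the 23 lower genes. Over all genes 2.46% were higher and 0.709% lower at that threshold. The genes were chosen from the same counts, so that this tally is not a separate test of them. The standard deviation of the log2 difference was taken over 5299 genes with a mean of at least 10 CPM. In SC it was 0.162 between the water cultures, 0.204 between the NaOH cultures and 0.476 between the acetone cultures. Between a water and a NaOH culture in SC it was 0.209 to 0.262. In YEPD it was 0.319 between the water cultures and 0.378 between the NaOH cultures.

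**Figure D5:**
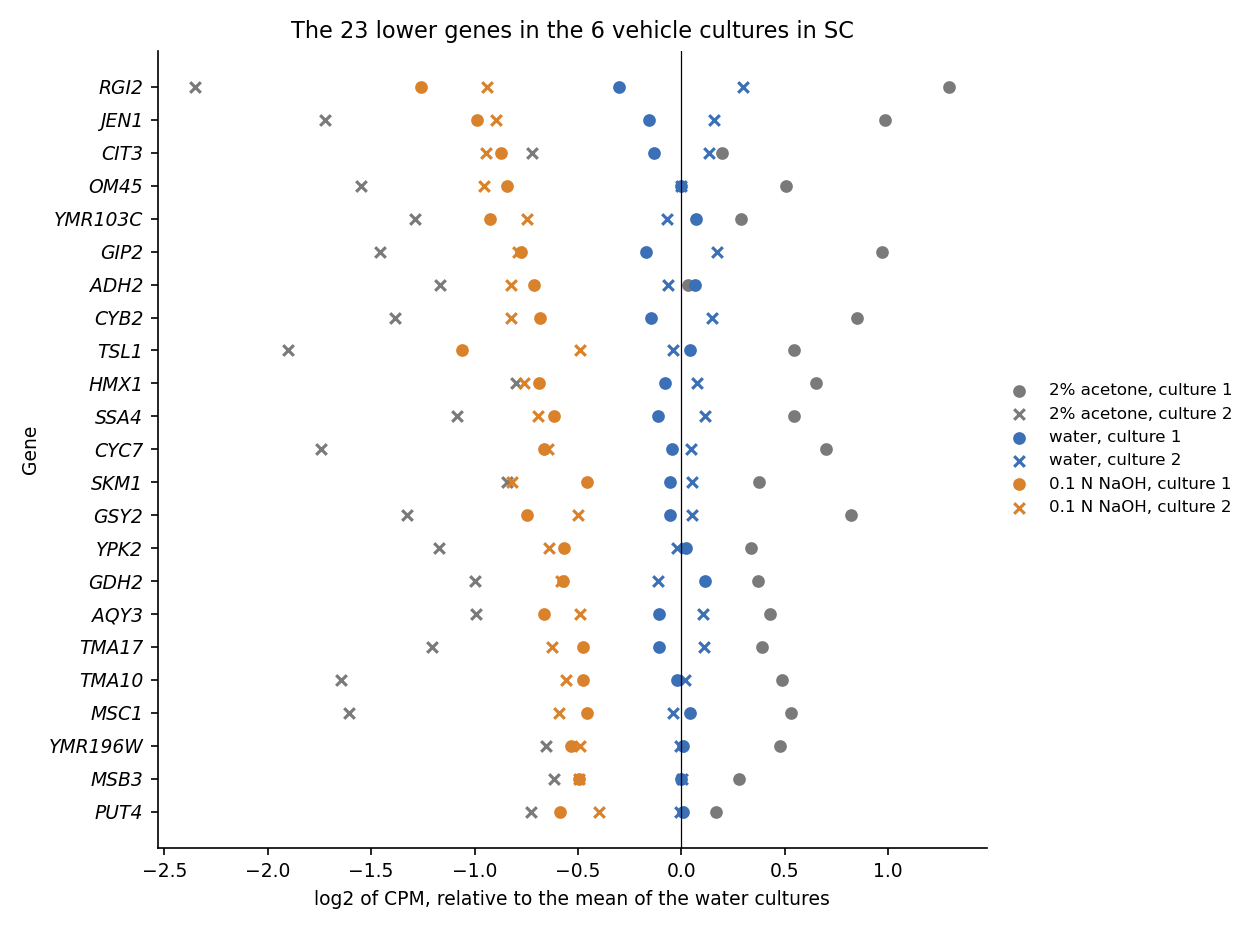
The 23 genes that were lower in NaOH in the fit of 4 cultures, with the log2 CPM of each vehicle culture in SC relative to the mean of the water cultures. NaOH (orange) lies left of water (blue) in all 23, which that fit chose for being lower. The acetone cultures (grey) lie beyond both on opposite sides in 21 of 23, and the share over all genes is not given.

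Against the acetone vehicle itself, 0 of 6344 genes (0%) passed for NaOH in edgeR's test, with 134 at an unadjusted p under 0.05. Without acetone culture 2, 4 genes were lower in NaOH. These were HPA2, an acetyltransferase gene, POT1 and PXA1, peroxisomal genes of fatty acid use, and HMX1, and the comparison then has 1 acetone culture, assumed to vary like the other groups. DESeq2 called RPL7B alone, higher by 0.74 on the log2 scale with an adjusted p of 0.026.

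In rich medium the labels give 1 N NaOH in YEPD against water in YEPD, so that medium and labelled concentration cannot be told apart in what follows. In that comparison 14 of 6344 genes (0.221%) passed, 12 higher and 2 lower. The higher genes held the cell wall genes SED1, CRH1, CCW14 and HSP150, the iron uptake genes FIT2 and FRE1, and the amino acid genes GCN4, ARG3 and GLN1. In SC the log2 fold changes of the 14 genes lay between -0.36 and 0.64. Of the 14, 7 had the same sign in both media, and for 13 the interval in SC lay within 2-fold.

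SED1, a cell wall glycoprotein gene, had 231 and 228 CPM with water and 178 and 179 CPM with NaOH in SC, a log2 fold change of -0.36 ± 0.19, and its value in YEPD was 1.18 ± 0.19. FRE1, the ferric reductase gene, lay at 0.32 ± 0.24 in SC and 1.32 ± 0.24 in YEPD. FIT2, a cell wall protein of iron uptake, had 5.82 and 6.22 CPM with water and 8.04 and 10.8 CPM with NaOH in SC, at 0.64 ± 0.48, and 2.62 ± 0.49 in YEPD. ENA1 lay at -0.10 in SC and 0.46 in YEPD, and PHO89 at 1.05 in SC and 0.73 in YEPD.

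The difference between the 2 NaOH effects was tested for every gene over the same 22 cultures. In edgeR's test 0 of 6344 genes (0%) passed, with 636 at an unadjusted p under 0.05 and a smallest adjusted p of 0.153. DESeq2 called 14 genes for this difference, 3 higher and 11 lower in SC relative to YEPD. Of them, 7 were among the 14 genes called in YEPD, SED1, CCW14, HSP150, BFR1, CRH1, YIR042C and CKI1. The difference contains the YEPD comparison by which those genes were chosen, so that an overlap arises from the shared cultures and is not separate support. SED1 also passed edgeR in a fit of the 8 cultures concerned, with a log2 difference of -1.55 and an adjusted p of 0.0193. Among the 13 panel genes the difference was -1.08 ± 0.34 (SE) for CTR1, 0.95 ± 0.26 for INO1 and -0.55 ± 0.24 for ENA1, with adjusted p of 0.4, 0.367 and 0.473 in edgeR's test. It was 0.07 ± 0.19 for PMA1, 0.29 ± 0.16 for RIM101 and 0.32 ± 0.51 for PHO89.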

How the data were processed

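RNA was extracted with hot phenol, per the labels' protocols. The authors deposited whole-number counts per feature of sacCer3, made with featureCounts 1.6.0 per the file headers, with no strand, pair or multiple-overlap option in the recorded command. Bowtie2, with no version, stands in the submitters' processing notes. Alignment file names in the headers contain mskDup and non-redundant. Features were matched to RefSeq R64 by systematic name (6008 of 6692, with 6000 at the same coordinates). rDNA features held 1.03 to 1.41% of the counts of a library.

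Counts of the 2 technical replicates were summed per culture. Genes were kept by filterByExpr (minimum count 10, total 15), scaled by TMM and fitted with edgeR 4.0.16 (R 4.3.3), 1 mean per group over 22 cultures, with the robust quasi-likelihood F test and Benjamini-Hochberg adjustment over 6344 genes at 0.05. Standard errors are the log2 fold change over the root of F. A gene is called uncertain where it overlaps another over at least 30% of its length, or has a copy of at least 95% identity over 30% of its length by BLAST 2.17.0. The procedure was tested on simulated counts. DESeq2 1.42.0 was an alternative, and the deposited DESeq2 tables, which compare inhibitors with vehicles, were not used here.

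Named genes are the 5 smallest p in each direction with separated cultures, at least 10 CPM, a standard name and no uncertain count, and a panel of 13 genes. Genes named from the fit of 4 cultures or from the lists were chosen after their values were seen. The comparison, gene lists, panel and tests were chosen with earlier results of these data known. Culture numbers were not used to pair the samples in the main fit.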

Additional observations from a re-analysis of the deposited data

How the results depend on the processing

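For NaOH against water, 0 genes were called in either direction under each alternative other than the fit of the 4 cultures of water and NaOH, which called 15 higher and 23 lower and put a called gene in 14 of the 39 lists. These alternatives were the 12 cultures in SC, the 10 vehicle cultures, DESeq2, RLE factors, no filter, each technical replicate alone, rDNA and mitochondrial features left out, the replicate block, the crossed block, the libraries that stood apart left out, and each culture left out (0 to 0). Alternatives on the fit of 4 cultures, the crossed block, the 10 vehicle cultures and the omission of single libraries were added after seeing the data.

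The number of calls in the fit of 4 cultures varied. It called 82 higher and 101 lower with DESeq2, 0 and 0 with the first technical replicates, 0 and 0 with the second, and 30 higher without the second libraries of NaOH culture 2 and water culture 1. Leaving out 1 culture gave 2 to 296 higher and 11 to 427 lower, the lowest without water culture 2 and the highest without NaOH culture 1. The lone sample is then assumed to vary like the other group. All 38 genes kept their sign under each of these alternatives, which use the same counts. The groups did not overlap in any of the 38, so that leaving out 1 culture could not turn a sign. With RLE factors 30 genes were called, all among the 38. The replicate block and the crossed block called more and are given below, and the remaining alternatives lay within 1.5 times.

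Whether cultures of the same number in different groups belong together was not established. Deviations of same-numbered water and NaOH cultures had a correlation of -0.21, and the replicate block in the fit of 4 cultures called 43 higher and 63 lower. With the crossed pairing that fit called 177 higher and 183 lower.

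For the difference between the media, DESeq2 called 3 higher and 11 lower, the fit of 8 cultures called 1 lower, and leaving out a culture gave 0 to 0. For NaOH against acetone, DESeq2 called 1 higher, and leaving out a culture gave 0 to 0 higher and 0 to 4 lower.

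The median of the trehalose and glycogen list was -0.26 with the first and -0.54 with the second technical replicates, -0.28 without the second library of NaOH culture 2, and -0.24 without that and the second library of water culture 1. The ribosomal protein median was 0.02 and 0.25 with the first and second technical replicates, and 0.01 and 0.03 under those omissions. The Msn2 and Msn4 median was -0.26 with the second technical replicates. Leaving out each culture gave 0.13 to 0.27 for the PHO list, -0.47 to -0.31 for trehalose and glycogen, -0.30 to -0.22 for glucose-repressed genes, -0.30 to -0.13 for Msn2 and Msn4, 0.08 to 0.17 for ribosomal proteins and 0.05 to 0.40 for zinc. The cause was not tested.

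KRE2, RPP2A, RPP2B, RPL25 and CIT3 passed only in the fit of 4 cultures (adjusted p 0.0313, 0.0105, 0.0105, 0.0147 and 0.0105). Signs turned in genes near zero. With the first technical replicates HXT2 lay at -0.05 and FET3 at -0.04, and with the second PMA1 at 0.10. Without the second library of NaOH culture 2, HXT2 lay at -0.04 and CTR1 at -0.05, and without both doubted libraries CTR1 at -0.05. Leaving out a culture turned ENA1 (-0.19 to 0.02), PMA1 (-0.04 to 0.04, with 0.02 without NaOH culture 1), HXT1 (-0.71 to 0.18), HXT4 (-0.27 to 0.05, with 0.02 without NaOH culture 1) and CTR1 (-0.08 to 0.13, with -0.02 without NaOH culture 1). With 2 cultures a group and 10.79 M counts or more per library, genes of few counts, such as SPL2, have wide counting error.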
